A study of Mus musculus with 6 samples.

Results

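The genes of the proteasome were followed as 1 complex whose members lie on many chromosomes. Members were the protein-coding genes of GENCODE release M21 whose symbols begin with Psma, Psmb, Psmc, Psmd, Psme, Psmf or Psmg, matched to the count table by Ensembl identifier. The rule found 50 genes among 21683 protein-coding genes of the table, 10 of them on chromosome 11 and 40 on other chromosomes. Psmc3ip, a meiotic recombination factor, was caught by its name only and is no proteasome gene, so the 10 genes on chromosome 11 hold 9 of the complex and its regulators.

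RNA was sequenced from neural progenitors made from mouse embryonic stem cells (mESCs) that carried Dmrta2 alleles of 2 kinds. The control line was flox/flox (3 libraries) and the other line was labelled -/- (3 libraries), and Dmrta2 encodes a transcription factor with a DM domain. Cells of both lines received the BMP receptor inhibitor LDN193189 (100 nM) and the activin and TGF-beta receptor inhibitor SB431542 (10 µM) until day 4, until day 6 XAV939 (1 µM), which blocks the Wnt pathway, and the Hedgehog pathway inhibitor cyclopamine (1 µM) from day 2. Cells were replated on day 5, and RNA was taken on day 8. The 3 libraries of a genotype are biological replicates of 1 line, so genotype and line cannot be told apart, and a p-value here reflects how samples of a line vary. Libraries carry the letters A, B and C, and values of single libraries are given in that order. How and when recombination took place is not given in the sources used here.

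The 26S proteasome degrades proteins that carry ubiquitin chains. Its 20S core is a barrel of alpha rings that gate the entry and beta rings that hold the peptidases, and its 19S cap has a ring of ATPases that unfold substrates and a set of non-ATPase subunits that bind and remove ubiquitin. Subunits enter the finished particle in fixed numbers, and their genes are commonly transcribed together through the factor NFE2L1 when proteasome activity is low. Neural progenitors depend on the proteasome for the turnover of cell cycle regulators and short-lived transcription factors.

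Among the members, Psmb6 and Psmb5 make a pair for comparing transcript levels, though 54.1% of the 50-base sequences of Psmb5 occur in other genes. Both encode catalytic beta subunits of the same ring, Psmb6 the caspase-like and Psmb5 the chymotrypsin-like one, and they lie on chromosomes 11 and 14. Both have a match to the antioxidant response element TGACNNNGC, the kind of site that NFE2L1 with a small MAF protein binds, in the RefSeq promoter window of 250 bases before to 50 bases after the start. The 250 bases before the start, in build GRCm38.p6, are chr11:70525107-70525356 on the plus strand for Psmb6 and chr14:54617996-54618245 on the minus strand for Psmb5, printed along the strand of the gene with the match in capitals.
Psmb6: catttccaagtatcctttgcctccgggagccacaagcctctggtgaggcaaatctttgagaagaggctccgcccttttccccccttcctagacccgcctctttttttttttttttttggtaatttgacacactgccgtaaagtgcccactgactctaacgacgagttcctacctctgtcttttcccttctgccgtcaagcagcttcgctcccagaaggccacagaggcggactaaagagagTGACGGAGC
Psmb5: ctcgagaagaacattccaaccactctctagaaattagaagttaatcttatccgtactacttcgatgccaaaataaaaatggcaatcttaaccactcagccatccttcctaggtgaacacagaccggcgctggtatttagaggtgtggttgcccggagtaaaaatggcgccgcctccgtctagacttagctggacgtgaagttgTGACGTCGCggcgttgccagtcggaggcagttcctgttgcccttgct
The match begins at position -9, directly before the start, in Psmb6 and at position -47 in Psmb5. On both strands of the 300-base window, TGACNNNGC was present in 6 of 45 promoters of 42 members (13.3%) against 12.4% of the 32851 promoters in the RefSeq table. It was found for 3 of 9 promoters on chromosome 11, those of Psmb6, Psmd12 and Psme4, and for 3 of 36 on other chromosomes, those of Psmb5, Psmc6 and Psmd9. The CCAAT box, which nuclear factor Y binds, was present in 15 of the 45 promoters (33.3%) against 37.4% of the table. A match of one motif does not imply a match of the other, and a match describes the letters of a window only.

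Total counts ran from 24565560 to 39646793 per library. Dmrta2, the targeted gene, was higher in the libraries labelled -/-, at 421 CPM (counts scaled by library size) against 79.9 CPM in flox/flox. Its counts therefore do not check the labels, the part of the gene that was deleted is not given in the sources used here, and every direction below is that of the libraries labelled -/-. All 10 listed markers of neural progenitors were present (summed 3908 to 4573 CPM in flox/flox and 3726 to 4082 CPM in those labelled -/-), with 6 higher and 4 lower past the threshold. Over all tested genes, 17.9% were higher and 17.4% lower. Neuron markers summed to 1051 to 1917 CPM and 2273 to 3832 CPM with 4 of 5 higher, and pluripotency markers to 85.7 to 92.5 CPM and 54.5 to 74.4 CPM with 2 of 4 lower. Of the telencephalic markers 2 of 3 were lower, with summed levels of 140.3 to 231 CPM and 91.9 to 111 CPM. The 5 markers of blood and microglia summed to 18.6 to 23.0 CPM and 13.1 to 15.8 CPM, nearly all of it Csf1r. Of these, Csf1r fell from a mean of 20.8 to 14.6 CPM (edgeR adjusted p = 0.0160) and Cd74 from 0.630 to 0.162 CPM (adjusted p = 0.01002). Untested for low counts, Ptprc and Cx3cr1 were at 0.0625 and 0.0133 CPM in flox/flox and at 0 in those labelled -/-, and Aif1 was at 0.0372 and 0.0929 CPM. The 4 markers of mesoderm and endoderm summed to 42.5 to 59.8 CPM and 33.0 to 56.1 CPM, with Sox17 higher (1.79 against 11.1 CPM, edgeR adjusted p = 0.00326), T lower (41.9 against 25.4 CPM, adjusted p = 0.0217) and 2 that did not pass. The 2 endothelial markers summed to 10.6 to 28.2 CPM and 5.24 to 13.0 CPM, and neither passed. The part of these differences in cell makeup in the results on the proteasome was not tested. In bulk RNA, fewer cells of a type and less RNA per cell cannot be told apart.

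Proteasome genes on chromosome 11 were higher in the libraries labelled -/-, while the genes of their partner subunits on other chromosomes had a median change close to 0. Of the 10 members on chromosome 11, 9 rose and 0 fell, and their median log2 change was 0.46, or 1.37-fold. Of the 38 tested members on other chromosomes, 4 rose and 2 fell, and their median was -0.03. Over the whole table, edgeR's quasi-likelihood test called 35.3% of 20549 genes at an adjusted p under 0.05, with 17.9% higher and 17.4% lower. Chromosome 11 itself was shifted, with 69.8% of its 1172 tested protein-coding genes higher and 6.06% lower at a median of 0.53, against 16.3% higher and 21.2% lower at a median of -0.02 on the other chromosomes. For genes with a mean of at least 10 CPM, a level that all 10 of these members reach, 82.8% of chromosome 11 genes were higher and 3.58% lower, against 16.6% and 20.5% elsewhere. The 9 of 10 members that rose are thus near the share of their chromosome.

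**Figure D1:**
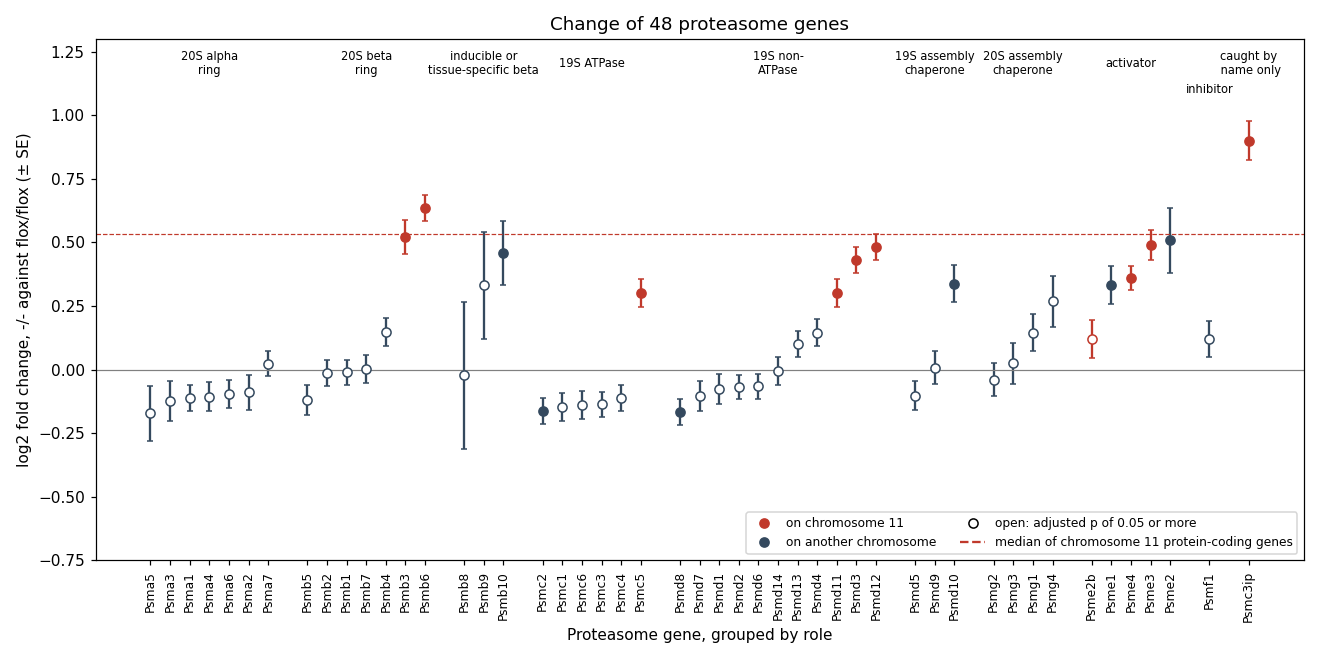
Log2 fold change (± SE of the fitted coefficient, 3 against 3 libraries) of the 48 tested genes, ordered by role, with chromosome 11 members in red and others in dark blue. Filled points passed an adjusted p of 0.05, and the dashed line marks the chromosome 11 median of 0.53. In each role that holds both kinds of gene, except the activators, the red points stand above the dark blue ones.

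The separation was seen in each library labelled -/-. Each gene was set against its own flox/flox mean, so values of flox/flox libraries lie near 0 by construction. The median log2 level of chromosome 11 members minus that of the other members, each relative to its flox/flox mean, was 0.016, 0.0014 and -0.019 for flox/flox and 0.49, 0.49 and 0.46 for those labelled -/-. Taken alone, relative to flox/flox, the medians of the chromosome 11 members were 0.49, 0.44 and 0.39 in the libraries labelled -/-. The same medians over the protein-coding genes of chromosome 11 were 0.54, 0.54 and 0.52. Along the chromosome, medians in bins of 10 Mb ran from 0.44 to 0.64 for genes of at least 10 CPM, the bin from 10 to 20 Mb holding 9 genes only. The medians of the other chromosomes ran from -0.08 on chromosome 13 to 0.04 on chromosome 2.

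Members took 0.404%, 0.404% and 0.413% of all counts in flox/flox and 0.441%, 0.430% and 0.417% in those labelled -/-. The chromosome 11 members alone went from 0.108%, 0.109% and 0.110% to 0.149%, 0.145% and 0.140%. The other members held 0.296%, 0.295% and 0.303% in flox/flox and 0.292%, 0.285% and 0.277% in those labelled -/-. The share of all members was higher in every library labelled -/-, and that of the members off chromosome 11 was lower in every one. These are shares of raw counts, so higher counts of some genes lower the share of all others.

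**Figure D2:**
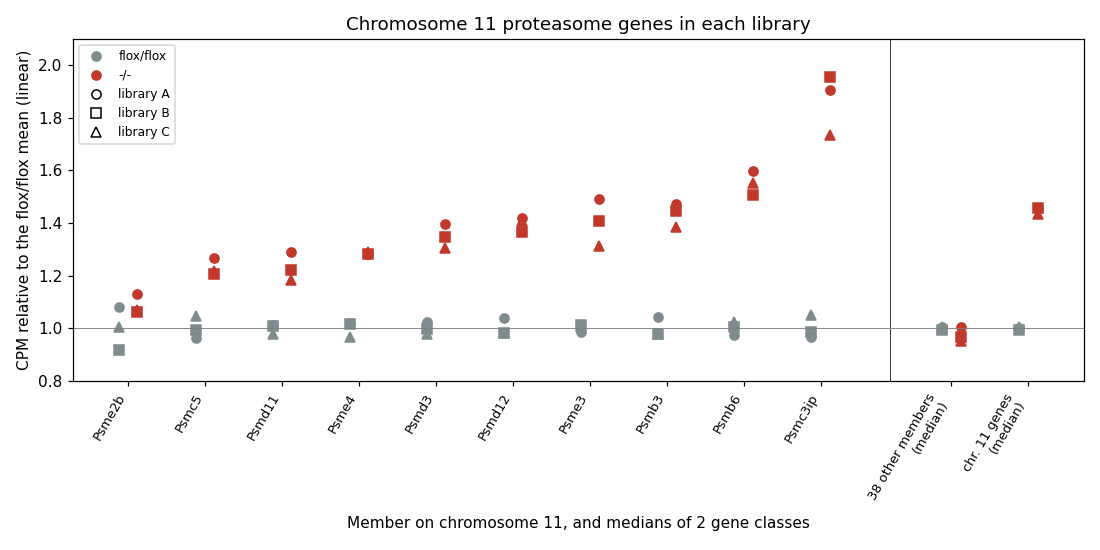
CPM of each chromosome 11 member in each library, divided by its flox/flox mean (linear axis), beside the median of the 38 other tested members and of all tested protein-coding genes of chromosome 11. Grey marks are flox/flox and red marks -/- libraries, with the shape giving the library letter. For Psme2b alone among the 10 members the red and grey marks overlap.

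In the 20S core, both beta genes on chromosome 11 rose and no other core gene of the alpha and constitutive beta rings passed the test. Psmb6 (ENSMUSG00000018286, chr11:70525367-70527858, plus strand) stood at 129, 134 and 136 CPM in flox/flox and 213, 200.4 and 206 CPM in those labelled -/-. The groups did not overlap, and Psmb6 rose by 0.63 ± 0.05 on the log2 scale (SE, 1.55-fold, edgeR adjusted p = 0.000381). Psmb3 (ENSMUSG00000069744, chr11:97703399-97713500, plus strand), a beta subunit without peptidase activity, measured 22.8, 21.4 and 21.4 CPM in flox/flox and 32.2, 31.7 and 30.3 CPM in those labelled -/-. Every value labelled -/- was above those of flox/flox, and Psmb3 rose 1.43-fold (edgeR adjusted p = 0.00139). Of its 50-base sequences, 17.8% occur in other genes, so its counts may hold or lack reads of copies.

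The other catalytic subunits of the ring did not follow Psmb6. Psmb5 (ENSMUSG00000022193) measured 53.8, 55.4 and 53.7 CPM in flox/flox and 51.6, 47.8 and 50.4 CPM in those labelled -/-, lower in each but not past the threshold (-0.12 ± 0.06, edgeR adjusted p = 0.147). Of its 50-base sequences 54.1% are shared with other genes, 46.8% with Gm3375, so its level is uncertain. Psmb7 (ENSMUSG00000026750), the trypsin-like subunit, measured 120.0, 114 and 116 CPM and 122, 114 and 114 CPM, with a log2 difference of 0.00 ± 0.05 (edgeR adjusted p = 0.995). Its groups overlapped.

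Within single libraries the ratio of the catalytic transcripts differed between the groups. Counts of Psmb6 were 2.41, 2.41 and 2.53 times those of Psmb5 in flox/flox and 4.12, 4.19 and 4.09 times in those labelled -/-. Against Psmb7 they were 1.08, 1.18 and 1.17 times and 1.74, 1.77 and 1.80 times. These ratios are of counts and not of levels per length, so only their change between libraries can be read. Neither ratio overlapped between the groups.

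The other 3 beta genes off chromosome 11 lay between -0.01 and 0.15. Psmb4, named after its value was seen, measured 129, 119 and 124 CPM in flox/flox and 142, 134 and 137 CPM in those labelled -/-. Its log2 difference of 0.15 ± 0.05 did not pass (edgeR adjusted p = 0.0710) but did with the column letter as a block (adjusted p = 0.0386) or with scaling factors computed without chromosome 11 genes (adjusted p = 0.0411). In the alpha ring, which has no gene on chromosome 11, 0 of 7 tested genes passed with edgeR, DESeq2 or limma-voom, with 0 at an unadjusted p under 0.05 in edgeR, and the median was -0.11. Values ran from -0.17 for Psma5 to 0.02 for Psma7, and 4 of the 7 were lower in every library labelled -/-. Among 13571 tested protein-coding genes off chromosome 11, 3999 were lower in every such library. The level of Psma5 is uncertain, since 49.96% of its 50-base sequences occur in other genes too (33.6% in Gm8394). The testis-specific alpha gene Psma8 had 39 counts over all libraries and was not tested.

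The inducible beta subunits replace the catalytic ones in the immunoproteasome, which immune cells and interferon-treated cells make. They were scarce in all libraries. Psmb10 (ENSMUSG00000031897), the counterpart of Psmb7, measured 4.09, 4.14 and 4.14 CPM in flox/flox and 6.07, 5.90 and 5.00 CPM in those labelled -/- and rose 1.37-fold (0.46 ± 0.13, edgeR adjusted p = 0.0265). The groups did not overlap, although the call was lost without any 1 of 5 libraries, all but -/- C, with adjusted p from 0.0557 to 0.0893. Psmb9 (ENSMUSG00000096727), the counterpart of Psmb6, measured 2.50, 2.85 and 2.11 CPM and 3.56, 3.46 and 2.32 CPM, with overlapping groups (edgeR adjusted p = 0.263). Psmb8 (ENSMUSG00000024338), the counterpart of Psmb5, was at 0.304, 0.418 and 0.319 CPM and 0.305, 0.369 and 0.352 CPM, also overlapping (edgeR adjusted p = 0.966). Psmb11, the subunit of thymic epithelium, had 37 counts in all and was not tested.

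Among 11 tested genes of interferon response and antigen presentation, the program that carries Psmb8, Psmb9 and Psmb10, 0 rose and 4 fell. Tapbp, the peptide-loading factor tapasin, fell from 33.7 ± 1.02 to 19.7 ± 2.18 CPM (SD, n = 3, edgeR adjusted p = 0.00111), and the interferon-induced Ifit3 fell from 1.08 ± 0.309 to 0.153 ± 0.110 CPM (SD, n = 3, edgeR adjusted p = 0.00457). Isg15 and Ifit1, induced by interferon as well, fell too. Isg15 went from 1.03 ± 0.201 to 0.374 ± 0.0461 CPM and Ifit1 from 1.37 ± 0.434 to 0.396 ± 0.222 CPM (SD, n = 3). The median of the list was -0.40 against -0.02 for protein-coding genes off chromosome 11, of which 16.3% were higher and 21.2% lower.

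In the 19S cap, Psmc5 is the only gene of the ATPase ring on chromosome 11 and the only one of the ring that rose. Psmc5 (ENSMUSG00000020708, chr11:106256154-106263120, plus strand) stood at 116, 119.8 and 126 CPM in flox/flox and 153, 145 and 147 CPM in those labelled -/-. The groups did not overlap, and Psmc5 rose by 0.30 ± 0.05 (1.23-fold, edgeR adjusted p = 0.00540). Psmc1, Psmc2, Psmc3, Psmc4 and Psmc6 lay between -0.16 and -0.11, each lower in all 3 libraries labelled -/-. The same held for 3999 of 13571 tested protein-coding genes off chromosome 11. Of these 5, Psmc2 (ENSMUSG00000028932) passed, falling from 118 ± 1.91 to 105 ± 4.03 CPM (SD, n = 3, 1.12-fold lower, edgeR adjusted p = 0.0461). That call was lost with scaling factors computed without chromosome 11 genes (adjusted p = 0.0772), with DESeq2 (0.0588), with no low-count filter (0.150) and without any 1 library other than -/- A (0.0885 to 0.194).

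Of the 11 non-ATPase genes with a Psm symbol, all 3 on chromosome 11 rose, and of the 8 others 0 rose and 1 fell. Psmd3 (ENSMUSG00000017221, chr11:98682554-98695979, plus strand) was found at 176, 172 and 168 CPM in flox/flox and 240.2, 231 and 224 CPM in those labelled -/- and rose 1.35-fold (edgeR adjusted p = 0.00110). Psmd12 (ENSMUSG00000020720, chr11:107479484-107504362, plus strand) measured 112, 106 and 106 CPM and 153, 147 and 152 CPM and rose 1.4-fold (edgeR adjusted p = 0.000734). Psmd3 and Psmd12 encode scaffold subunits of the lid, the outer part of the cap, and neither overlapped between groups.

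Psmd11 (ENSMUSG00000017428, chr11:80428615-80473248, plus strand), a lid subunit that helps to hold the cap on the core, measured 72.5, 72.2 and 70.1 CPM in flox/flox and 92.4, 87.5 and 84.7 CPM in those labelled -/-. It rose 1.23-fold, with groups that did not overlap (edgeR adjusted p = 0.00589). The fall was that of Psmd8 (ENSMUSG00000030591), a lid subunit encoded on chromosome 7. Psmd8 measured 144, 139 and 143 CPM in flox/flox and 126, 122 and 131 CPM in those labelled -/- (1.12-fold lower, edgeR adjusted p = 0.0398). The call was lost without chromosome 11 genes in the scaling factors (adjusted p = 0.0713), with no low-count filter (0.121) and without any 1 library other than -/- C (0.0913 to 0.184). Psmd4, a ubiquitin receptor named after its value was seen, stood at 0.15 ± 0.05 (edgeR adjusted p = 0.0636) and passed with scaling factors computed without chromosome 11 genes (adjusted p = 0.0391).

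Summed by ring, the transcripts from chromosome 11 took a larger share in the libraries labelled -/-. For this sum each gene's CPM was divided by its exonic length in kb. In the beta ring, Psmb3 and Psmb6 held 23.0%, 23.9% and 23.9% of the summed level in flox/flox and 32.0%, 32.1% and 32.3% in those labelled -/-. Psmc5 held 26.2% ± 0.745 of the ATPase ring in flox/flox and 32.4% ± 0.369 in the libraries labelled -/- (SD, n = 3). The 3 non-ATPase genes held 21.8% ± 0.410 and 27.9% ± 0.131 of the group of 11 with a Psm symbol (SD, n = 3). In each of these groups of subunits, all libraries labelled -/- lay above all flox/flox libraries.

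**Figure D3:**
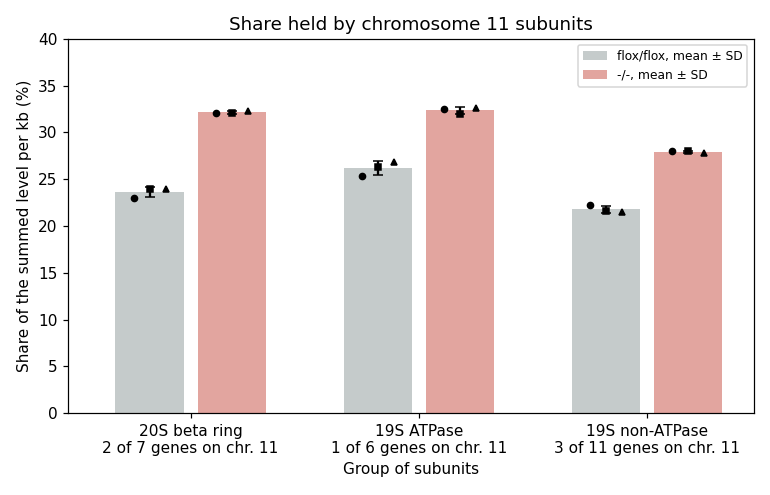
Share of the summed level per kb of exon (percent, linear axis from 0) that chromosome 11 genes hold in the beta ring, the ATPase ring and the non-ATPase group. Bars are means, error bars the SD over 3 libraries and points the libraries, and the beta ring goes from 23.6% to 32.1%.

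The assembly chaperones have no gene on chromosome 11. Psmd10 (ENSMUSG00000031429, chromosome X), which encodes the ATPase-binding chaperone gankyrin, measured 17.4, 17.8 and 18.2 CPM in flox/flox and 23.6, 21.8 and 22.0 CPM in those labelled -/-. It rose 1.26-fold without overlap (edgeR adjusted p = 0.0108), and of the 4 rises off chromosome 11 it was the only one that kept its call whichever library was left out. The other cap chaperones, Psmd5 and Psmd9, stood at -0.10 and 0.01 and did not pass. Of the 4 core chaperones, Psmg1 to Psmg4, which start the assembly of the rings, 0 passed with edgeR, DESeq2 or limma-voom (1 at an unadjusted p under 0.05 in edgeR), at -0.04 to 0.27.

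Activators cap the ends of the core in place of the 19S particle, and 4 of their 5 genes rose. These were 2 of 3 on chromosome 11 and 2 of 2 off it. Among tested protein-coding genes, 69.8% on chromosome 11 and 16.3% off it were higher. Psme3 (ENSMUSG00000078652, chr11:101316213-101323537, plus strand), the nuclear activator PA28-gamma, measured 169, 174 and 172 CPM in flox/flox and 256, 242 and 225 CPM in those labelled -/- (1.4-fold, edgeR adjusted p = 0.00117). Psme4 (ENSMUSG00000040850, chr11:30771726-30880361, plus strand), a large nuclear activator, measured 218, 217 and 207 CPM and 274, 274 and 277 CPM (1.28-fold, edgeR adjusted p = 0.00163). Neither gene overlapped between groups.

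Psme1 (ENSMUSG00000022216) and Psme2 (ENSMUSG00000079197), neighbours on chromosome 14 whose products form the interferon-inducible activator, rose as well. Psme1 measured 20.5, 19.8 and 19.3 CPM in flox/flox and 23.4, 26.1 and 25.6 CPM in those labelled -/- (1.26-fold, edgeR adjusted p = 0.0127). Psme2 measured 3.85, 3.99 and 3.71 CPM and 4.91, 5.70 and 5.84 CPM (1.42-fold, edgeR adjusted p = 0.0184). Groups did not overlap, but both calls were lost without flox/flox B (adjusted p = 0.0515 and 0.0559) or without -/- B (adjusted p = 0.0551 and 0.0675).

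Psme2b (ENSMUSG00000078153, chr11:48945354-48946190, minus strand), a copy of Psme2 annotated as protein-coding, was the chromosome 11 member that did not pass. It measured 52.3, 44.3 and 48.6 CPM in flox/flox and 54.7, 51.5 and 51.8 CPM in those labelled -/-, with overlapping groups (0.12 ± 0.07, edgeR adjusted p = 0.252). Of its 50-base sequences 68.7% occur in Psme2, and 28.3% of those of Psme2 occur in Psme2b. How reads with several matches were counted is not given in the sources used here, so the levels of both genes are uncertain. Psmf1, which encodes the inhibitor PI31, stood at 0.12 ± 0.07 and did not pass (edgeR adjusted p = 0.230).

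Psmc3ip (ENSMUSG00000019303, chr11:101091823-101095436, minus strand), caught by name, had the largest change of the 48 tested genes. It measured 17.3, 17.6 and 18.8 CPM in flox/flox and 34.1, 35.0 and 31.1 CPM in those labelled -/- and rose 1.87-fold without overlap (0.90 ± 0.08, edgeR adjusted p = 0.000440). Exons of Mlx on the other strand cover 21.2% of its exonic bases, so it can hold reads of that gene. Of 3 listed meiosis genes, 0 rose and 2 fell, with low summed levels of 4.42 to 6.59 CPM in flox/flox and 2.04 to 2.85 CPM in those labelled -/-. All 3 lie off chromosome 11, where 16.3% of tested protein-coding genes were higher and 21.2% lower. Without Psmc3ip, the median of the chromosome 11 members was 0.43.

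The chromosome 11 members were next compared with the shift of their own chromosome. The shift, the difference between the chromosome 11 median and that of the other chromosomes, was 0.55 (1.46-fold), and it was taken out before the same test was run again. Of 1172 protein-coding genes of chromosome 11, 17.7% then lay above the shift and 19.5% below it. Of the 10 members, 1 lay above and 4 below. Psmc3ip stood 0.35 above (edgeR adjusted p = 0.0128). Psmc5 and Psmd11 stood at -0.25 from the shift (edgeR adjusted p = 0.0125 and 0.0143), Psme4 at -0.19 (adjusted p = 0.0221) and Psme2b at -0.43 (adjusted p = 0.00549).

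The 5 members that did not depart from the shift past the threshold were Psmb3, Psmb6, Psmd3, Psmd12 and Psme3, between -0.12 and 0.08 from it. Without flox/flox B or without -/- B, Psme2b alone was called below and 0 members above. The call of Psme4 was also lost without flox/flox A (edgeR adjusted p = 0.0614) or without -/- A (adjusted p = 0.0526). The 10 nearest tested protein-coding genes around each member on chromosome 11 had medians from 0.42 around Psmb3 to 0.72 around Psmc3ip. These neighbours had a mean of at least 10 CPM and were not members. Of the 10 members, 7 lay below the median of their neighbours: Psme2b by -0.39, Psmc5 by -0.29, Psmd11 by -0.27, Psme3 by -0.22, Psme4 by -0.21, Psmd3 by -0.14 and Psmd12 by -0.07. The other 3 lay above it, Psmb6 by 0.06, Psmb3 by 0.10 and Psmc3ip by 0.18. Psme3 at 0.49 was below its lowest neighbour at 0.55, and every other member lay within the range of its neighbours. How often other genes of chromosome 11 lie below their neighbours was not computed.

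Members off chromosome 11 had a narrower spread of changes than protein-coding genes there. Over all 38 tested members the interquartile range was 0.23, against 0.49 for 13571 protein-coding genes. The interquartile range of log2 changes was 0.14 for the 33 of them with a mean of at least 10 CPM, against 0.37 for 9265 protein-coding genes of that level on other chromosomes. The interquartile range was 0.20 for the chromosome 11 members, whose changes ran from 0.12 to 0.90, and 0.36 for the 838 chromosome 11 genes of that level. Beyond this limit, members and other genes were not matched for level. Of the 38 tested members off chromosome 11, 14 were lower and 9 higher in every library labelled -/- than in any flox/flox library. Over all genes 51% did not overlap, and on other chromosomes 53.9% of protein-coding genes did not, in either direction, so the members' share is close to the background. On chromosome 11, 9 of 10 members did not overlap, all higher, against 73.7% of its tested protein-coding genes. Of those with a mean of at least 10 CPM, which all 10 members reach, 714 of 838 were higher without overlap. Genes of 1 complex are not replicates of a condition, and no p-value is attached to these spreads.

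**Figure D4:**
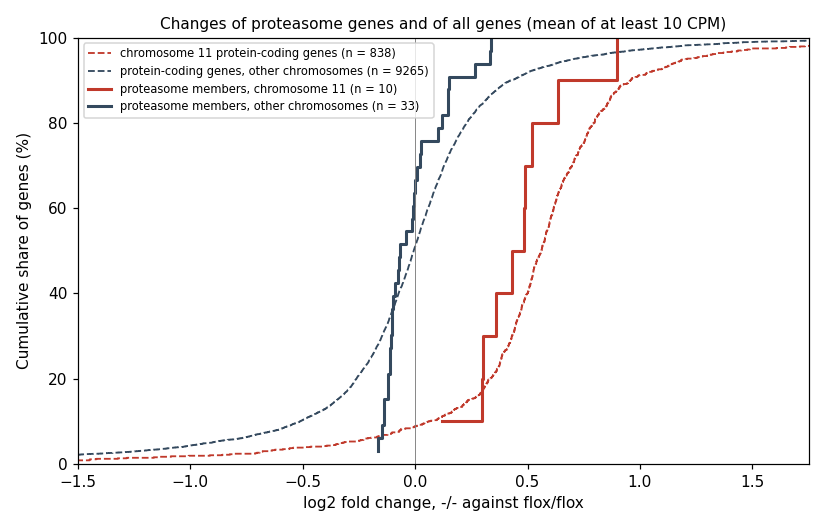
Cumulative share of genes (percent) by log2 change for members and for all protein-coding genes with a mean of at least 10 CPM, on chromosome 11 (red) and elsewhere (dark blue), with solid lines for members and dashed lines for all genes. Solid lines rise more steeply than the dashed line of the same colour, and the red pair lies to the right of the blue pair.

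Levels per length spread widely within the complex. In flox/flox, Psma6 stood highest at 92.3 ± 3.80 CPM per kb of exon (SD, n = 3), followed by Psmc5 at 86.5 ± 3.59, Psmb2 at 77.2 ± 1.51 and Psmc4 at 77.1 ± 1.67. Psmb2 and Psmc4 did not differ beyond their spread. The lowest levels of the constitutive beta ring were those of Psmb7 at 34.1 ± 0.952, Psmb1 at 25.4 ± 0.110 and Psmb3 at 9.52 ± 0.359 CPM per kb. In the libraries labelled -/-, Psmb6 at 110.3 ± 3.27 and Psmc5 at 106 ± 2.87 stood above Psma6 at 86.3 ± 2.48 CPM per kb (SD, n = 3). Exonic length is that of all annotated exons together, so genes with long rare isoforms appear low on this scale.

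**Figure D5:**
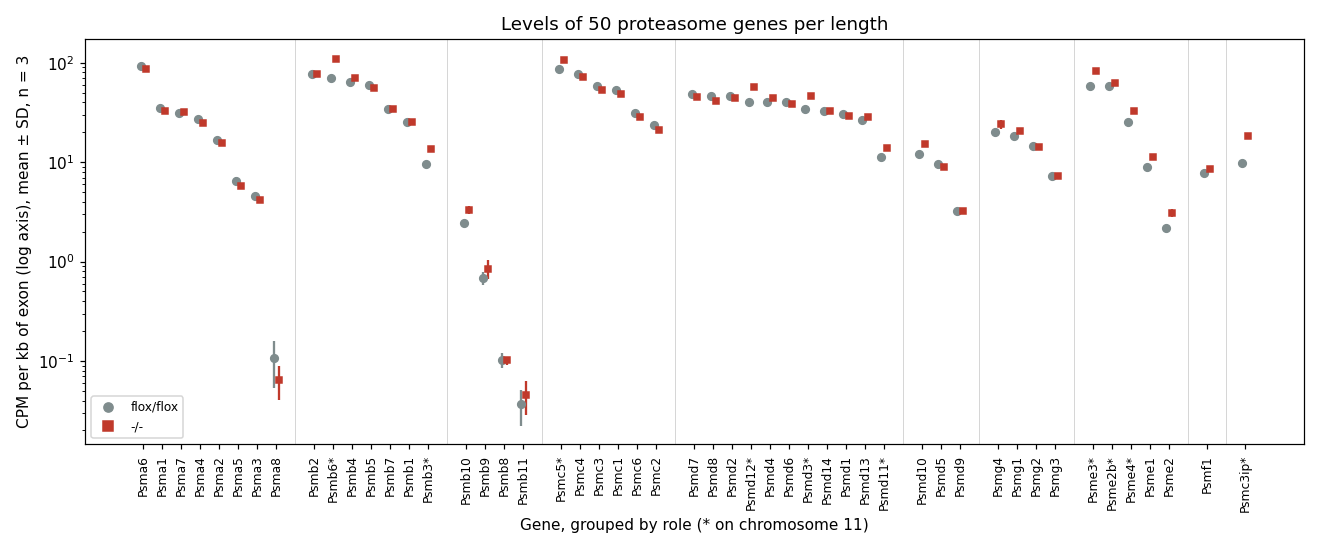
Level of each of the 50 genes in CPM per kb of exon (log axis, mean ± SD of 3 libraries), with flox/flox as grey circles and -/- as red squares, grouped by role and ordered by the flox/flox level. Asterisks mark chromosome 11, Psma6 stands highest among the grey circles, and Psma8, Psmb8 and Psmb11 lie lowest.

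The 10 listed genes of the particle and its partners whose symbols do not begin with Psm lie off chromosome 11. Of 10 tested, 0 rose and 3 fell, and the median was -0.04. Protein-coding genes off chromosome 11 had shares of 16.3% higher and 21.2% lower. The falls were those of Usp14 and Uchl5, deubiquitinases bound to the cap, and of the thioredoxin-like Txnl1. Usp14 fell from 117 ± 1.89 to 93.7 ± 0.299 CPM (SD, n = 3, edgeR adjusted p = 0.00220), Uchl5 from 31.0 ± 1.83 to 23.9 ± 2.18 CPM (edgeR adjusted p = 0.0155) and Txnl1 from 127 ± 6.40 to 102 ± 7.22 CPM (edgeR adjusted p = 0.0124). The assembly factor Pomp and the ubiquitin receptor Adrm1, named after their values were seen, did not pass, at -0.03 and 0.10.

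Of 13 genes for the control of proteasome transcription, 3 rose and 6 fell. The 2 on chromosome 11 rose, and of the 11 off it 1 rose and 6 fell. Of all tested protein-coding genes, 69.8% on chromosome 11 were higher (82.8% of those with a mean of at least 10 CPM). Off it, 16.3% were higher and 21.2% lower. Nfe2l1, on chromosome 11, measured 259, 251 and 249.6 CPM in flox/flox and 336, 326 and 332 CPM in those labelled -/- and rose 1.31-fold (edgeR adjusted p = 0.00116). Of the small MAF genes that encode its binding partners, Mafg on chromosome 11 rose by 0.21 on the log2 scale (edgeR adjusted p = 0.0364), while Mafk and Maff fell 2.19-fold and 2.53-fold (edgeR adjusted p = 0.000412 and 0.00105). Nfe2l2, the oxidative stress factor of the same family, fell from 38.9 ± 2.49 to 21.2 ± 2.28 CPM (SD, n = 3, edgeR adjusted p = 0.000822). Among the subunits of nuclear factor Y, Nfya rose 1.21-fold and Nfyb fell 1.22-fold. Nfyc and Ngly1, a processing enzyme of NFE2L1, were named after their values were seen and fell 1.22-fold and 1.24-fold. Members with a TGACNNNGC match had log2 changes of 0.63 (Psmb6), 0.48 (Psmd12) and 0.36 (Psme4) on chromosome 11 and of -0.12 (Psmb5), -0.14 (Psmc6) and 0.01 (Psmd9) off it.

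Among 15 tested genes of ubiquitin and its shuttles, 5 rose and 2 fell. All 3 members on chromosome 11 rose, the polyubiquitin gene Ubb 1.43-fold, the ubiquitin fusion gene Rps27a 1.37-fold and the p97 cofactor Nploc4 1.4-fold (edgeR adjusted p = 0.00395, 0.00187 and 0.000693). Of 12 off it, Ubqln2 and Ufd1, the latter named after its value was seen, rose 1.25-fold each. The shuttle Rad23b and the activating enzyme Uba6 fell 1.31-fold and 1.21-fold. Among tested protein-coding genes, 69.8% on chromosome 11 were higher, and off it 16.3% were higher and 21.2% lower.

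Other complexes of fixed composition were compared in the same way. In the COP9 signalosome, a relative of the 19S lid, Gps1 and Cops3 on chromosome 11 rose 1.59-fold and 1.49-fold (edgeR adjusted p = 0.000662 and 0.000453). Of the 7 COP9 genes elsewhere 0 rose and 1, Cops5, fell, with a median of 0.02. In the chaperonin TRiC, Cct4 on chromosome 11 rose 1.36-fold (edgeR adjusted p = 0.00106), and the 7 other genes did not pass, with a median of -0.06. On chromosome 11, 69.8% of all tested protein-coding genes were higher (82.8% of those with a mean of at least 10 CPM). Elsewhere 16.3% were higher and 21.2% lower. These complexes were measured in the same libraries as the proteasome.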

How the data were processed

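RNA from 6 samples was measured, 3 per genotype. The aligner BWA 0.5.9, the counter featureCounts 1.4.6 and the mouse build mm10 (GRCm38) are named by the submitters' processing notes. The authors deposited 1 table of raw counts of reads per gene. The sources used here give neither the strand setting nor the handling of duplicates and of reads with several matches. Columns carry a genotype and a letter, so each was assigned to a group and is named by its letter. The number of columns left out was 0. Symbols came from GENCODE M21, matched for 48058 of 48526 identifiers.

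Counts were tested in R 4.3.3 with edgeR 4.0.16 (quasi-likelihood test, two-sided, TMM factors, filterByExpr with a minimum count of 10 and a minimum total of 15, group as the only term). The Benjamini-Hochberg adjustment covered 20549 genes, and the threshold was 0.05. Errors of log2 changes are standard errors (SE) of the fitted coefficient. The common biological coefficient of variation was 0.123, and a CPM of 1 stands for 25.1 to 39.3 reads. Libraries of a group differed by more than sampling noise (chi-square per gene of 5.47 to 29.8). The code of the fits was also run on simulated counts with 200 changed genes and a uniform shift of chromosome 11. That simulation had fewer changed genes than these data and no pairing by letter, so it does not test the results here. Deviations of same-letter libraries from their group means correlated at 0.328, 0.124 and 0.314 over genes, so the letters were taken to pair the libraries, and a fit with the letter as a block was run beside the main one.

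The members and gene lists were chosen with earlier results of these data known. The text gives values for every member on chromosome 11, for the catalytic and inducible beta genes, for the activators, and for up to 6 rises and 6 falls elsewhere that passed at a mean level of 5 CPM or more, and from each list up to 4 genes a direction. Shared sequences are exact 50-base matches between exonic sequences. Promoters came from RefSeq (GRCm38.p6). Alternatives were other scaling factors, filters and thresholds, a DESeq2 1.42.0 Wald test, limma-voom (limma 3.58.1), the block, each library left out, and, added after the data were seen, the chromosome 11 shift taken out.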

Additional observations from a re-analysis of the deposited data

How the results depend on the processing

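The chromosome 11 members had 9 rises and 0 falls under all scalings, filters, tools, thresholds and libraries left out that were run, except with the shift taken out (1 higher, 4 lower). With the column letter as a block, the counts were 9 and 0 on chromosome 11 and 5 and 2 elsewhere, and the difference of medians was 0.49. Apart from Psmb4, the block changed no member's call. The difference of medians was 0.52 with members of at least 10 CPM and 0.46 without Psmc3ip.

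Falls off chromosome 11 numbered 2, but 0 with TMM factors computed without chromosome 11 genes, 0 without a low-count filter, 1 with DESeq2, 0 at a threshold of 0.01 and 0 to 1 with a library left out. Rises there numbered 4, but 6 with those TMM factors, 0 at 0.01 and 1 to 4 with a library left out (1 without flox/flox B or -/- B). Over all genes, 1992 were higher and 1895 lower at 0.01, and 2315 to 3510 higher and 2342 to 3336 lower with a library left out (2315 without flox/flox B, 2342 without -/- B). Members above the shift numbered 0 to 1 and below it 1 to 4 with a library left out. The cause of these losses was not tested.

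Psmb7 lay near 0 and changed sign, at -0.000479 with DESeq2 size factors, -0.00801 with upper-quartile factors, -0.000138 with a filter of 1 CPM, -0.000392 with DESeq2 and from -0.0302 to 0.0319 with a library left out. Psmb8 was at 0.00137 with factors computed without chromosome 11 genes, and between -0.117 and 0.132 with a library left out (0.132 without flox/flox B, 0.0636 without -/- A). The other scalings moved the median of all genes by -0.0011, -0.0085 and 0.025. Depth limits Psma8, Psmb8 and Psmb11, which held 37 to 63 counts over all libraries.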
